A study of Mus musculus with 12 samples.

Results

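Primary mouse chondrocytes, the cells that build and maintain cartilage, were compared after transfection with a plasmid labelled wild type (WT) and under the label control. The treatment labels gave 4 WT and 4 control libraries, 8 of the 12 libraries in the series. The other 4 libraries came from cells given a plasmid for the SIRT5F101L mutant and entered only the shared estimate of spread and 1 direct comparison. All cells carried the wild-type genotype, and strain, age and culture time are not given in the sources used here. The WT plasmid was read as wild-type SIRT5 from the title of the series and the name of the mutant. What control cells received is not stated, so the effect of the expressed protein and that of transfection itself cannot be told apart. The labels do not say whether libraries came from separate mice or cultures, and the p-values measure the spread between these libraries, which may be technical.

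SIRT5 is a mitochondrial member of the sirtuin family, enzymes that use NAD to remove acyl groups from lysines. It acts mainly on malonyl, succinyl and glutaryl groups, and its known substrates include enzymes of glycolysis, fatty acid oxidation and ammonia disposal. Chondrocytes live with little oxygen, draw much of their energy from glycolysis, and secrete a matrix of type II collagen and aggrecan. In osteoarthritis these cells are known to lose matrix synthesis, to release proteases and inflammatory mediators, and in part to resume division.

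Control libraries held 18233484 to 19905485 counts and WT libraries 15288294 to 19713318. The first principal component of the 8 libraries carried 78.0% of their variance and placed all control libraries between -56.0 and -53.6 and all WT libraries between 54.3 and 56.4. The 20 most abundant genes held 14.9% to 16.6% of control counts and 10.9% to 11.3% of WT counts. Across genes, the slope of log2 level on log2 transcript length was 0.58 to 0.60 in control and 0.61 to 0.70 in WT libraries, so that long transcripts were read somewhat more in WT. All 2414 X-linked, 1547 Y-linked and 37 mitochondrial gene IDs were listed at 0 in all 12 libraries. Some autosomal genes that nearly every cell uses, such as B2m, Hif1a, Rps10 and Srsf2, were listed at 0 as well. A gene at 0 throughout is therefore not described as absent.

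Sirt5 itself was read first, as a check of the labels. It had 11, 15, 9 and 16 counts in the control libraries and 9, 9, 8 and 1 in the libraries labelled WT. No WT library stood above the control range, and the mean was 0.688 ± 0.169 CPM (counts as a share of the library, scaled per 1000000 by TMM; SD, n = 4) in control against 0.383 ± 0.229 in WT. Its fitted log2 fold change (log2FC), WT over control, was -0.86 (SE 0.49, edgeR adjusted p 0.143), and an exact 2-sided permutation test gave p = 0.0571, where 0.0286 is the smallest possible. No rise of Sirt5 counts was seen, and at this depth a modest difference in either direction could not be detected. The sequence of the plasmid is not given, so whether its transcript would be counted at the mouse gene is not known, and "WT" below means the libraries carrying that label.

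The label of the cells was checked with marker genes. All 13 chondrocyte markers were read in both groups. Their summed level was 9260 to 11560 CPM in control and 2923 to 3046 CPM in WT libraries, with 10 of 13 lower and Acan, Hapln1 and Sox5 higher. In control, osteoblast markers summed to 11180 to 13580 CPM, nearly all of it Col1a1, and fibroblast and synovial lining markers to 19490 to 23510 CPM, most of it Col1a2 and Col3a1, against the chondrocyte sum above. In WT they were 3358 to 4123 and 7777 to 8678 CPM. Hypertrophic chondrocyte markers summed to 1912 to 2092 CPM in control and 13740 to 17030 CPM in WT, most of it Spp1. All 3 tested members of that set (Spp1, Mmp13 and Panx3) rose, and Col10a1 was listed at 0. Markers of T, B and red blood cells summed to at most 1.01 CPM in any library. Macrophage markers were read at 211 to 247 CPM in control and 96.8 to 111 CPM in WT libraries. All 12 tested macrophage markers fell, while Itgam was at 0. In RNA from a whole culture, fewer cells of a type and less RNA per cell cannot be told apart.

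In edgeR's quasi-likelihood fit, 8090 of 14253 tested genes (56.8%) differed between WT and control after Benjamini-Hochberg adjustment, at an adjusted p below 0.05; these are termed called. Of these, 4091 were higher (28.7% of tested genes) and 3999 were lower (28.1%) in WT. The difference was called and at least 2-fold for 2375 genes (16.7%), and 3894 called genes differed by less than 1.5-fold. The groups did not overlap for 7619 genes (53.5%). With most genes called, a list of genes is set below against these shares, and against the median log2 fold change of all tested genes, -0.01. Each list is described by counts of called members in each direction and by its own median, with no test of the list. The share of called genes rose with level, from 39.4% in the lowest of 4 equal tiers by mean CPM to 68.9% in the highest. Lists of abundant genes therefore have a higher background than the shares of all genes. Of the 3052 tested genes on the lists, 67.0% were called. Lists and members were chosen with earlier results of these data known, and how far that choice enters the 67.0% was not tested. Highest and lowest, or rising and falling most, said of a list, refer to called members averaging at least 5 CPM. In every gene given library by library below, the 4 control and the 4 WT libraries did not overlap. Gene lists are also open to uneven counting: members of near-identical families, among them histones, Fth1, Hmga1, Ifit3 and C4b, and genes that overlap an antisense partner, are uncertain because the strand setting and the handling of shared reads are not given.

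**Figure D1:**
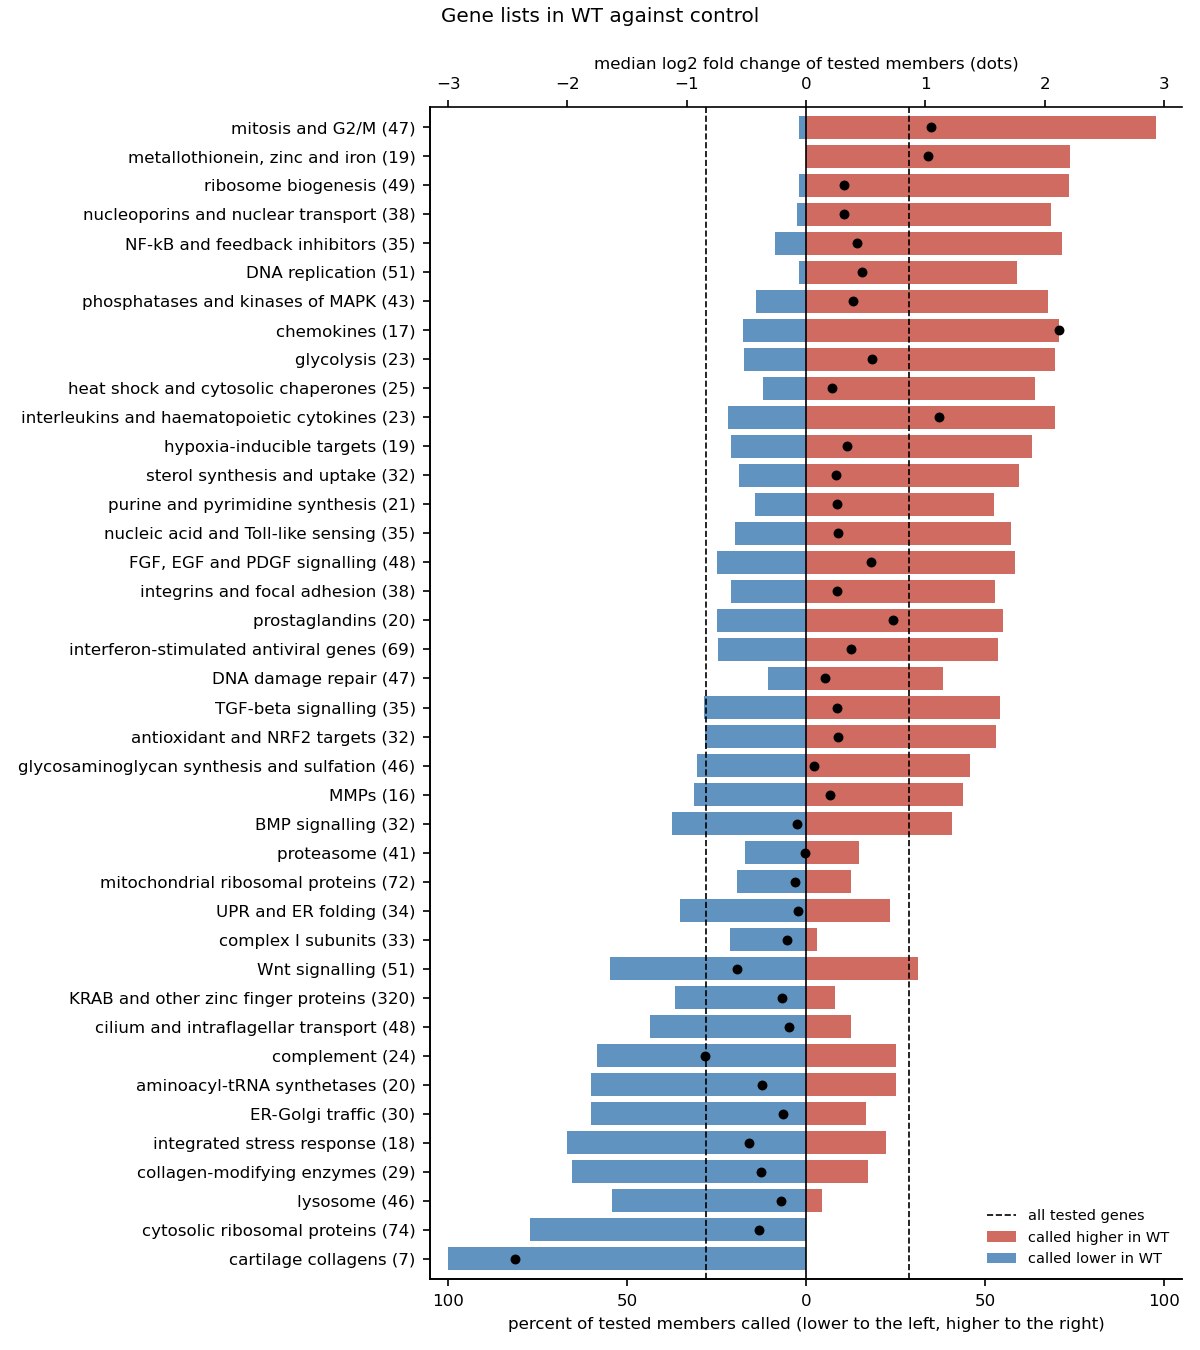
Called members of 40 of the 84 gene lists in WT against control. Bars show the percent of tested members called higher (right) and lower (left), dots the median log2 fold change on the upper axis, numbers in brackets the members tested, and dashed lines the 28.7% higher and 28.1% lower among all tested genes. Mitosis reaches 46 of 47 members higher and cartilage collagens 7 of 7 lower.

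Most genes of the ATF4 programme and most cytosolic tRNA synthetase genes were lower in WT, while amino acid carriers and one-carbon enzymes went both ways. ATF4 is the transcription factor that cells make when amino acids run short or proteins misfold, and it switches on genes for amino acid synthesis, uptake and tRNA charging. Of 18 tested genes listed for this integrated stress response, 12 fell and 4 rose, with a median log2 fold change of -0.48. Among the risers was Ddr2 (log2FC 0.38), a collagen receptor that is not a gene of this response. It is counted in the median and in the sums given next. The summed level of the list was 2296 to 2488 CPM in control and 1526 to 1607 CPM in WT libraries. Atf4 was read at 391, 373, 371 and 347 CPM in the control libraries and at 146, 149.9, 160.2 and 165 CPM in the WT libraries. Every WT library lay below every control library, and Atf4 had a log2FC of -1.25 (SE 0.07, edgeR adjusted p 7.83e-12). Atf5, a related factor that ATF4 controls, went from 309 ± 24.2 to 66.4 ± 5.85 CPM (log2FC -2.22). Ddit3, which encodes the stress factor CHOP, fell by about the same fold as Atf4, from 122.8 ± 3.50 to 51.8 ± 6.45 CPM (log2FC -1.25). Trib3, the pseudokinase that feeds back on ATF4, was lowest in the list, going from 102 ± 5.13 to 20.4 ± 3.06 CPM (log2FC -2.32).

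Several enzymes and carriers that ATF4 is known to control fell as well. Asns, asparagine synthetase, had a log2FC of -1.38, Chac1, which degrades glutathione, -1.31, and Sesn2, a leucine sensor, -0.999. Stc2, a secreted stress protein, rose most in the list (log2FC 0.94). Among 20 cytosolic aminoacyl-tRNA synthetases, the enzymes that load amino acids onto tRNA, 12 fell and 5 rose. Aars was lowest, from 448 ± 15.8 to 219 ± 3.1496 CPM (log2FC -1.03), while Farsb rose (log2FC 0.39). Of 18 amino acid carriers, 10 fell and 6 rose. Slc7a5, the light chain of the large neutral amino acid carrier, was read at 121, 102, 122.9 and 113 CPM in control and 27.1, 24.9, 32.3 and 30.3 CPM in WT libraries. The 2 groups were far apart, at a log2FC of -1.998 (SE 0.09, edgeR adjusted p 8.24e-14). Its heavy chain partner Slc3a2 fell by less (log2FC -0.85), and the glutamine carriers split, with Slc1a5 at a log2FC of -0.62 and Slc38a2 at a log2FC of 0.38, while Slc7a6, an exchanger of basic and neutral amino acids, rose most (log2FC 0.88).

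One-carbon metabolism, which moves single carbons from serine into nucleotides, divided within itself. The mitochondrial enzymes Mthfd2 (85.8 ± 1.23 to 28.0 ± 2.12 CPM, log2FC -1.62) and Aldh1l2 (116 ± 4.33 to 23.6 ± 1.35 CPM, log2FC -2.29) fell. Mthfd1l, which acts next to Mthfd2 in the same compartment, rose from 77.3 ± 2.56 to 155 ± 5.46 CPM. Phgdh and Psat1, which open serine synthesis, had log2FCs of 0.07 and -0.06 that were not called, and Psph, which completes it, fell (log2FC -1.31). Over the list 7 of 20 rose and 7 fell. Pck2, the mitochondrial enzyme that turns oxaloacetate into phosphoenolpyruvate and another known ATF4 target, fell from 196 ± 6.55 to 33.2 ± 1.20 CPM (log2FC -2.56). In contrast, 11 of 21 genes of nucleotide synthesis rose and 3 fell, of which the kinase Cmpk1 was lowest (log2FC -0.29). Uck2, a uridine kinase, rose (log2FC 1.38), Ctps, which makes CTP (log2FC 0.98), and Rrm2, a subunit of ribonucleotide reductase (log2FC 0.97).

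**Figure D2:**
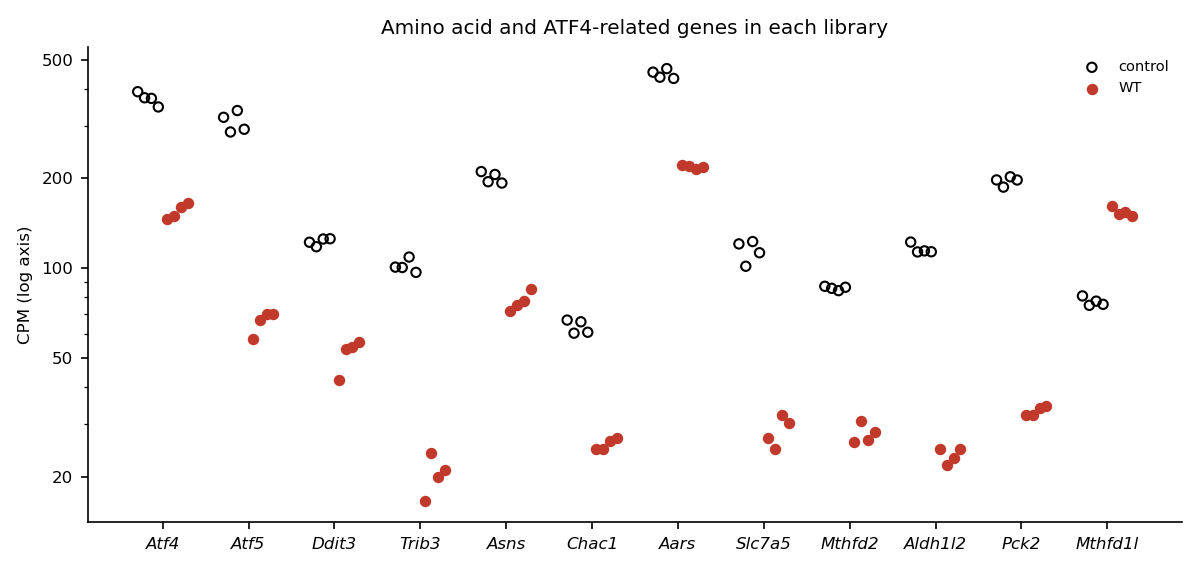
Level of 12 amino acid and ATF4-related genes in each library, in TMM-scaled CPM on a log axis. Open circles are the 4 control and filled circles the 4 WT libraries; for every gene shown except Mthfd1l the WT libraries lie below the control libraries, with Trib3 at 20.4 against 102 CPM on average.

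Genes of protein folding in the endoplasmic reticulum had no common direction. Of 34 genes of the endoplasmic reticulum stress response, 8 rose, 12 fell and 14 were not called, with a median log2FC of -0.07. Hspa5, the main chaperone of that compartment, was at 1510 ± 81.0 and 1470 ± 96.1 CPM, a log2FC of -0.04 that was not called. Hyou1 and Hsp90b1, chaperones of the same compartment, rose (log2FC 0.48 and 0.28), as did the stress sensor Ern1 (log2FC 0.77), and Herpud1, which helps to clear misfolded proteins, fell (log2FC -1.24). Cytosolic chaperones were mostly higher, with 16 of 25 up and 3 down, Dnajb4 being lowest (log2FC -0.61). Hspa4l, an exchange factor for HSP70, was read at 25.1, 24.1, 25.2 and 24.6 CPM in control and at 302, 284, 275 and 285 CPM in WT libraries. That was the largest change of the list, a log2FC of 3.53 (SE 0.07, edgeR adjusted p 3.50e-19). Hsph1, another exchange factor, rose from 225 ± 3.14 to 884 ± 19.6 CPM (log2FC 1.98), and Cryab, a small heat shock protein, from 350.0 ± 7.71 to 909 ± 50.4 CPM (log2FC 1.38). The inducible HSP70 gene Hspa1b rose (log2FC 1.99), but it is a near copy of Hspa1a and reads may be split between them. Hsp90aa1, the inducible HSP90 gene, rose from 504 ± 21.2 to 889 ± 63.8 CPM (log2FC 0.82). Other heat shock genes lay nearer to control, with Hspb1 at a log2FC of -0.14 and Bag3 at a log2FC of 0.04, neither called, and Dnajb1 at a log2FC of 0.26.

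The parts of the ribosome and the factors that assemble it moved apart. None of 74 cytosolic ribosomal protein genes rose and 57 fell, none of them by 2-fold, with a median log2FC of -0.39. Their sum was 43910 to 48870 CPM in control and 31400 to 39690 CPM in WT libraries, with WT replicate 1 lowest. Rps20, a protein of the small subunit, was read at 1028, 988, 1088 and 979 CPM in control and 462, 593, 550.3 and 655 CPM in WT libraries (log2FC -0.85), and Rps2 was the called member nearest to 0 (log2FC -0.22). These genes are short and have many processed copies, so their counts are uncertain. With the length trend of each library removed, 58 members fell, 0 rose and the median was -0.33. Of 49 ribosome assembly genes, 36 rose and 1 fell. Polr1a, the largest subunit of RNA polymerase I, rose from 41.6 ± 2.57 to 91.0 ± 3.23 CPM (log2FC 1.13), and nucleolin (Ncl) from 431 ± 12.97 to 536 ± 13.8 CPM (log2FC 0.31). With the length trend removed Ncl was not called (edgeR adjusted p 0.0744). The exception was nucleophosmin, Npm1 (log2FC -0.28). Myc, the factor known to drive these genes, rose from 30.4 ± 2.27 to 56.6 ± 1.97 CPM (log2FC 0.90).

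Translation factors went both ways, with 11 of 57 higher and 21 lower. The scaffold Eif4g1 rose (log2FC 0.74) and the elongation factors Eef1a1 and Eef2 fell (log2FC -0.31 and -0.44), with Eif5a2 lowest (log2FC -0.98). Nuclear pore and transport genes were higher as a group, 26 of 38 against 1 lower, with the exporter Xpo1 among them (log2FC 0.80) and the pore subunit Nup85 as the one that fell (log2FC -0.23, not called with the length trend removed, edgeR adjusted p 0.108, or without the filter on low counts, 0.0517). Splicing genes had no common direction, with 14 higher and 18 lower of 64, between Prpf39 (log2FC 0.52) and Hnrnpa0 (log2FC -0.52), and proteasome subunits were mostly not called (28 of 41), with Psmd5 highest (log2FC 0.81) and Psmb1 lowest (log2FC -0.41).

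Genes of cell division rose. The mitosis list was higher in 46 of 47 genes, with a median log2 fold change of 1.04 and a summed level of 695 to 723 CPM in control against 1388 to 1482 CPM in WT libraries. Mki67, which codes for the proliferation antigen Ki-67, was read at 33.7, 38.1, 38.4 and 32.7 CPM in control and 90.9, 87.5, 83.2 and 93.0 CPM in WT libraries (log2FC 1.31, SE 0.08, edgeR adjusted p 1.54e-11). The spindle checkpoint kinase Bub1 rose (log2FC 1.65), the mitotic kinase Plk1 (log2FC 1.32), and Foxm1, the transcription factor of this phase (log2FC 1.28). The one member that fell was Smc4, a condensin subunit (log2FC -0.24). In the DNA replication list 30 of 51 genes rose, with 1 lower and a median log2FC of 0.47. Mcm10, a helicase cofactor, rose most (log2FC 1.08) and Orc6, of the origin complex, fell (log2FC -0.46). The helicase subunits Mcm2 and Mcm5 rose (log2FC 0.77 and 1.06), while Cdt1 and E2f1, with log2FCs of 0.25 and 0.13, were not called. Of 47 repair genes, 18 rose and 5 fell, with Rad18 highest (log2FC 1.24) and Xpa lowest (log2FC -0.52).

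Several brakes of the cell cycle fell. Cdkn1c, the inhibitor p57, went from 7.47 ± 0.961 to 1.15 ± 0.4997 CPM (log2FC -2.71). Cdkn2a, which codes for p16 and p19Arf, went from 186 ± 9.89 to 78.9 ± 4.69 CPM (log2FC -1.24), and Cdkn1a, the inhibitor p21, from 461 ± 25.7 to 320.0 ± 13.8 CPM (log2FC -0.53). Gadd45a, a growth arrest gene, fell as well (log2FC -1.65). Mdm2, which restrains p53, rose (log2FC 0.50), as did cyclin D1 (Ccnd1, log2FC 0.995) and Cdk6 (log2FC 0.72). The p53 list as a whole split, 14 higher and 16 lower of 41.

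Promoters of these lists were read for short motifs in the RefSeq promoter table (GRCm38.p6), which gives 250 bases before and 50 after each start. The CHR motif, TTTGAA, is bound by the MuvB complex that times mitotic genes. It was found on either strand in 70.0% of 40 promoters of the mitosis list and in 17.9% of all 32817 promoters. An E2F-like motif, TTTNGCGC, was found in 26.5% of 49 promoters of the replication list and in 1.38% of all. The promoter with the motif whose gene had the largest fold change among members averaging at least 5 CPM is shown for each, since both lists rose on balance. The 250 bases before the start are printed on the strand of the gene, with the motif on either strand in capitals. For Mcm5 (chr8:75109259-75109508, plus strand, GRCm38.p6) 2 matches on opposite strands overlap. Kif2c (chr4:117178773-117179022, minus strand), a kinesin that takes microtubules apart, had a log2FC of 1.44.
Mcm5: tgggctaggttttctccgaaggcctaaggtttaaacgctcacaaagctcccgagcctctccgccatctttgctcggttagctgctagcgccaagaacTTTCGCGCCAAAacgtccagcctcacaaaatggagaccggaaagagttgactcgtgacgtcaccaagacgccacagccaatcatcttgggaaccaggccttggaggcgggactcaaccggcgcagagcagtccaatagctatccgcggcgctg
Kif2c: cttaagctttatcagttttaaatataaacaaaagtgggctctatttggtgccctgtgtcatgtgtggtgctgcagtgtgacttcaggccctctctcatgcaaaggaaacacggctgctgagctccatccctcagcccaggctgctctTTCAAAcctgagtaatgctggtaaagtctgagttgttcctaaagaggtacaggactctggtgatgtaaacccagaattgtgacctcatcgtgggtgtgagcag
A match is a description of letters and not a measured binding site.

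**Figure D3:**
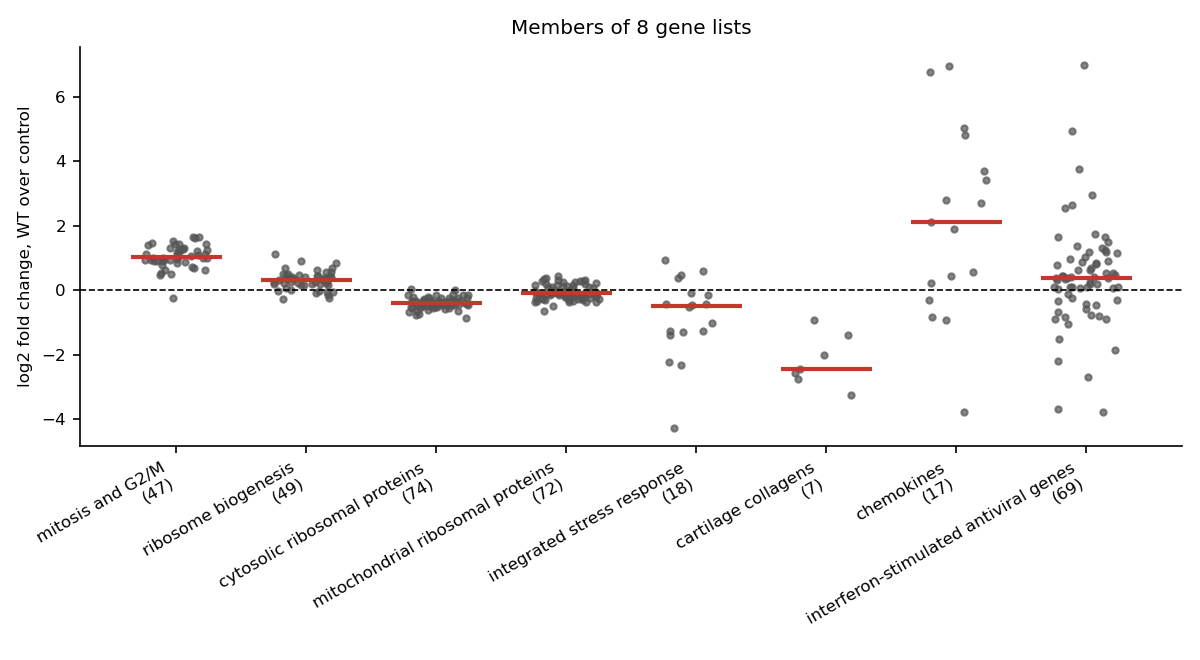
Log2 fold change of each tested member of 8 gene lists, WT against control, each point 1 gene and the short line the median. The dashed line marks 0. Cytosolic ribosomal proteins sit in a narrow band around -0.39 and mitosis genes around 1.04, while chemokines spread from -3.76 to 6.96.

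Genes of glucose uptake, glycolysis and lactate transport were mostly higher. Of 23 glycolysis genes 16 rose and 4 fell, and their sum was 11780 to 12770 CPM in control and 18070 to 19850 CPM in WT libraries. The glucose carrier Slc2a1 rose from 61.3 ± 4.10 to 137 ± 13.6 CPM (log2FC 1.16). Hexokinase 2 (Hk2), which traps glucose in the cell, rose (log2FC 1.44). Slc2a3, another glucose carrier, fell (log2FC -0.88). The lactate carriers Slc16a1 and Slc16a3 rose (log2FC 1.96 and 1.08). Ldha rose while Ldhb, the isoform known to favour pyruvate, fell (log2FC 0.59 and -0.67). Glycogen and gluconeogenesis genes were more often lower, 10 of 20 against 6 higher, although the branching enzyme Gbe1 rose (log2FC 1.499). In the pentose phosphate branch 5 of 10 genes rose, with Pgd at a log2FC of 0.82, and cytosolic Idh1 fell (log2FC -0.40).

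Genes of the mitochondrion, where SIRT5 resides, had no common direction. The mitochondrially encoded genes and the X-linked subunits were at 0 and are not covered. Of 33 nuclear complex I subunits 25 were not called, 7 fell and 1 rose, with Ndufs1 (log2FC 0.20) the one that rose and Ndufa7 (log2FC -0.60) the lowest. Ndufs1 was not called by edgeR without control replicate 1 (adjusted p 0.0549) or 4 (0.123), or without WT replicate 2 (0.0928) or 4 (0.105), nor on all libraries with upper-quartile scaling (0.101), without the filter on low counts (0.0597) or with the replicate number as a block (0.0504). The other complexes of the respiratory chain held 8 higher and 8 lower of 36, from cytochrome c (Cycs, log2FC 0.71) to the cytochrome oxidase isoform Cox4i2 (log2FC -1.09). Of 72 mitochondrial ribosomal proteins 49 were not called, and the called ones ran from Mrpl12 (log2FC 0.44) to Mrps16 (log2FC -0.65). In the tricarboxylic acid cycle and its gate 11 of 28 genes rose and 5 fell. Pdp1, the phosphatase that switches on pyruvate dehydrogenase, was read at 114, 123.2, 125 and 109 CPM in control and 17.2, 16.5, 18.1 and 18.5 CPM in WT libraries (log2FC -2.74, SE 0.08, edgeR adjusted p 1.45e-16). No WT library came near the control range. Idh2, the mitochondrial isocitrate dehydrogenase that makes NADPH and a known SIRT5 substrate, also fell (log2FC -1.79), and Idh3a, which serves the cycle itself, rose (log2FC 0.74). The kinases that oppose Pdp1 went both ways, with Pdk1 at a log2FC of 0.36, Pdk2 at a log2FC of -0.78 and Pdk4, not called, at a log2FC of 0.05. Ppargc1a, a driver of mitochondrial biogenesis, rose from 8.15 ± 1.54 to 19.7 ± 2.31 CPM (log2FC 1.27), and Pink1, which marks damaged mitochondria, fell (log2FC -1.07).

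Hypoxia-inducible genes, which overlap with glycolysis, rose in 12 and fell in 4 of 19. Angptl4, an inhibitor of lipoprotein lipase, led them (log2FC 1.93), and Epas1, the gene of HIF-2 alpha, fell (log2FC -1.04). Fatty acid oxidation had 8 lower and 3 higher of 21 genes. Cpt1a, the enzyme of its entry step, rose (log2FC 0.93) and Acadm, which starts the breakdown of medium chains, fell (log2FC -0.92).

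Sirtuin and NAD genes had no common direction. Of 21 tested genes of sirtuins, NAD and tryptophan use, 6 rose, 4 fell and 11 were not called, and 4 of the risers passed 2-fold. Nampt, the limiting enzyme of NAD salvage, fell by a small amount (log2FC -0.36), and Nnmt, which spends nicotinamide, rose from 22.7 ± 1.05 to 64.2 ± 4.79 CPM (log2FC 1.499). Parp14, which attaches ADP-ribose from NAD to proteins, and Bst1, which cleaves NAD, rose as well (log2FC 1.31 and 2.08). Sirt2 fell (log2FC -0.43). Sterol synthesis genes rose more often than they fell. The sterol list held 19 higher and 6 lower of 32. The cholesterol exporters split, Abcg1 rising from 6.89 ± 0.965 to 32.7 ± 2.60 CPM (log2FC 2.24) and Abca1 falling (log2FC -0.60). Fatty acid synthesis genes Fasn, Acly and Scd1 rose (log2FC 0.73, 0.75 and 0.76), while the full list of 26 was even, 10 higher and 11 lower, from Lpin2 (log2FC 1.01) to its sister lipin Lpin1 (log2FC -0.77).

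Antioxidant genes split. Of 32 tested genes 17 rose and 9 fell. The risers included enzymes that NRF2, the factor of electrophile stress, is known to induce. Other members of this list of antioxidant genes and NRF2 targets fell. Nqo1, a quinone reductase, was read at 34.6, 38.5, 37.1 and 34.2 CPM in control and 128, 140.3, 139.7 and 159 CPM in WT libraries (log2FC 1.97, SE 0.08, edgeR adjusted p 2.99e-14). Txnrd1, Srxn1 and Gsr, which restore thioredoxin, peroxiredoxin and glutathione, rose (log2FC 0.99, 1.05 and 1.04). Secreted superoxide dismutase, Sod3, rose from 833 ± 51.3 to 2827 ± 180.5 CPM (log2FC 1.76). Gpx3, the secreted glutathione peroxidase, went the other way, with 272, 245, 289 and 290.1 CPM in control and 70.6, 76.1, 71.9 and 64.0 CPM in WT libraries (log2FC -1.96, SE 0.07, edgeR adjusted p 4.46e-15). Several glutathione transferases of the list fell too. Gsta4, which detoxifies lipid aldehydes, had a log2FC of -1.05. Gstm1, Gstm2 and Gstm5 had log2FCs of -1.439, -1.542 and -0.7506. The list therefore does not show a rise of NRF2 targets as a set.

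Genes of zinc and iron handling were mostly higher. Of 19 tested genes in that list 14 rose and 0 fell, with a median log2FC of 1.02. The zinc importers Slc39a8 and Slc39a14 rose from 5.10 ± 0.791 to 39.7 ± 1.76 CPM and from 86.4 ± 6.23 to 312 ± 17.1 CPM. ZIP8, the product of Slc39a8, is known in cartilage for importing zinc that raises the expression of matrix proteases. The zinc-binding metallothionein Mt1 rose from 686 ± 24.4 to 1750 ± 193 CPM (log2FC 1.35). The smallest called rise was that of the zinc importer Slc39a6 (log2FC 0.50). Several iron genes of the list rose: the transferrin receptor Tfrc (log2FC 1.77), ceruloplasmin (Cp, log2FC 2.50), and Lcn2, which binds iron carriers of bacteria, from 4.36 ± 1.27 to 310.2 ± 34.5 CPM (log2FC 6.16). The iron exporter Slc40a1, which stands outside this list and in the antioxidant list as a known NRF2 target, fell from 22.5 ± 0.129 to 3.90 ± 0.305 CPM (log2FC -2.53).

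Collagens of cartilage fell, while aggrecan rose. All 7 tested cartilage collagen genes fell, with a median log2FC of -2.44. Col9a1, whose product decorates type II fibrils, was read at 85.8, 76.7, 89.3 and 85.4 CPM in control and 8.43, 9.74, 9.47 and 7.91 CPM in WT libraries (log2FC -3.25, SE 0.10, edgeR adjusted p 2.11e-16). Col11a1, Col11a2 and Col27a1, which shape those fibrils, fell (log2FC -1.38, -2.73 and -2.44), and Col9a2 fell least (log2FC -0.91). Of 21 other collagens 11 fell and 5 rose, from the transmembrane Col23a1 (log2FC 2.84) to Col8a2 (log2FC -6.14). The fibrillar chains Col1a1, Col1a2 and Col3a1 were among the 10 genes that lost most CPM, while Col4a1 of basement membranes and Col8a1 rose (log2FC 0.35 and 0.33). Osteoblast markers fell in 4 of 5 tested genes and fibroblast markers in 4 of 7, while Cd34, Prg4 and Pdgfra rose (log2FC 3.02, 0.41 and 0.39). How far a changed mix of cells enters these values was not tested.

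The machinery that makes and cross-links collagen fell with it. Of 29 genes 19 were lower and 5 higher. Serpinh1, the collagen chaperone HSP47, fell from 2332 ± 72.4 to 807 ± 39.2 CPM (log2FC -1.53), Pcolce, which helps to cut procollagen (log2FC -0.89), and lysyl oxidase (Lox, log2FC -0.95). Adamts2, which trims the amino end of procollagen, fell most (log2FC -1.60). Loxl4, another lysyl oxidase, rose from 316 ± 39.0 to 1071 ± 55.9 CPM (log2FC 1.76). In the path from the endoplasmic reticulum to the Golgi 18 of 30 genes fell and 5 rose, with the coat subunit Copz2 lowest (log2FC -1.39). Creb3l1, a factor known to switch on collagen secretion genes, fell (log2FC -1.24), and its relative Creb3l2 rose (log2FC 0.54).

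Among glycoproteins and adhesive proteins 31 of 48 fell and 12 rose. Matn3 and Cnmd, made almost only by chondrocytes, fell from 44.6 ± 1.46 to 3.85 ± 0.963 CPM and from 111 ± 4.96 to 2.54 ± 0.374 CPM. Postn, a protein of fibrous tissue, fell as well (log2FC -3.70), and Eln, elastin, from 11.4 ± 1.93 to 0.171 ± 0.152 CPM. Vcan, the large proteoglycan of provisional and inflamed matrix, was read at 52.1, 51.7, 49.7 and 56.3 CPM in control and 674, 589.6, 633 and 617 CPM in WT libraries (log2FC 3.58, SE 0.08, edgeR adjusted p 5.82e-18). Aggrecan (Acan) rose from 133 ± 16.02 to 184 ± 5.999 CPM (log2FC 0.47) and its link protein Hapln1 (log2FC 0.25). Of the small leucine-rich proteoglycans 7 were tested, 4 fell and 1 rose. Dcn rose (log2FC 1.44) while Fmod and Lum fell (log2FC -2.97 and -0.90).

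Glycosaminoglycans are the sugar chains that hold water in cartilage. The list of enzymes that make, sulfate or trim them, with hyaluronan genes and the receptor Cd44, held 21 higher and 14 lower of 46. Ugdh, which makes the UDP-glucuronate for these chains, was read at 325, 339, 332 and 334 CPM in control and 965, 969, 978 and 1051 CPM in WT libraries (log2FC 1.57, SE 0.05, edgeR adjusted p 1.74e-15). Xylt1, which starts each chain on its protein, rose (log2FC 1.52), and so did the chondroitin sulfotransferases Chst11 and Chst3 (log2FC 1.60 and 1.32). Of the enzymes that begin and extend chondroitin chains, Chsy1 and Csgalnact1 fell (log2FC -0.70 and -0.66) and Chsy3 and Csgalnact2 rose (log2FC 0.77 and 0.31). Heparan sulfate genes marked the ends of the list, Hs3st1 (log2FC 5.67) and Extl1 (log2FC -3.08). The sulfate donor side fell, with the carrier Slc26a2 at a log2FC of -0.48 and Papss2, which makes activated sulfate, at a log2FC of -0.51. Of the hyaluronan synthases Has1 and Has2 rose (log2FC 2.50 and 0.84) and Has3 was not called (log2FC 0.05). The receptor Cd44 rose (log2FC 1.82), and Cemip, which breaks hyaluronan down, fell (log2FC -1.20).

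**Figure D4:**
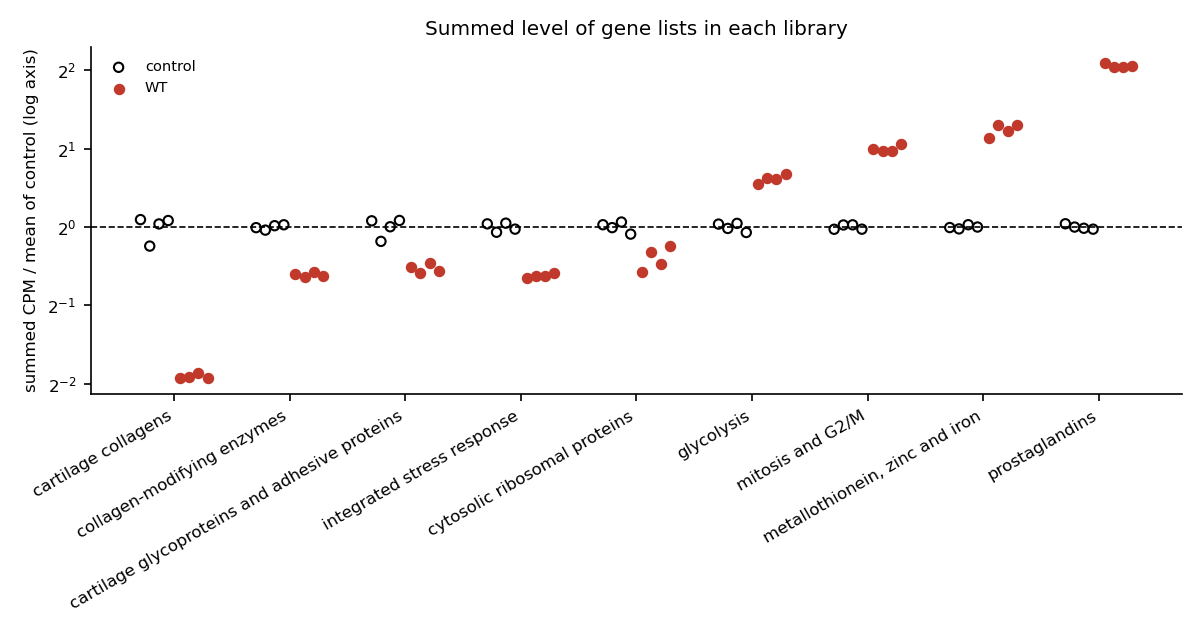
Summed level of 9 gene lists in each library, in TMM-scaled CPM divided by the mean of the 4 control libraries, on a log axis. Open circles are control and filled circles WT libraries; cartilage collagens sum to 2237 to 2335 CPM in WT against 7196 to 9097 in control, and prostaglandin genes to 3057 to 3187 against 730 to 766.

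Proteases and their inhibitors both split, the inhibitors with 10 higher and 8 lower of 23. The metalloproteinases held 7 higher and 5 lower of 16. Mmp3, the stromelysin, rose from 16.3 ± 1.55 to 1532 ± 146 CPM (log2FC 6.55), and the collagenase Mmp13 (log2FC 2.56). Mmp2 and its activator Mmp14, which act at the cell surface, fell (log2FC -1.17 and -0.92), and Mmp23 (log2FC -2.17). Aggrecanases and their kin went down more often than up, 13 against 7 of 25, Adam23 being lowest (log2FC -2.17). Adamts4 fell from 5.63 ± 1.35 to 1.93 ± 0.275 CPM and Adamts5 from 270.2 ± 35.1 to 198 ± 12.7 CPM, while Adamts7, which cuts COMP, rose from 4.74 ± 0.483 to 14.7 ± 0.788 CPM. The plasminogen activator Plau rose (log2FC 1.92) with its receptor Plaur (log2FC 0.93). Reck, a membrane inhibitor of metalloproteinases, fell from 258 ± 23.05 to 72.3 ± 5.90 CPM (log2FC -1.83), as did the cathepsin inhibitor Cst3 (log2FC -1.66) and Timp2 (log2FC -0.34).

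An AP-1-like motif, TGANTCA, is known to serve the promoters of collagenases and stromelysins. It was found in 33.3% of 15 metalloproteinase promoters and in 7.81% of all promoters of the table. The promoter of Mmp3 (chr9:7445572-7445821, plus strand, GRCm38.p6) carries it close to the start and is shown because Mmp3 had the largest fold change of the list, with the match in capitals.
Mmp3: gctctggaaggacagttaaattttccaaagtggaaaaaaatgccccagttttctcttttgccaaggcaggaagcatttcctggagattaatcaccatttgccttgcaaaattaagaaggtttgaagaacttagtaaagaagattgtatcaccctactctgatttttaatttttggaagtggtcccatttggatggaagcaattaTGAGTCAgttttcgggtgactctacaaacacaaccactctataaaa
The genes of AP-1 itself split, in a list of immediate-early factors with 22 higher and 10 lower of 35. Fosl1 rose from 8.11 ± 1.35 to 30.2 ± 1.78 CPM (log2FC 1.89) and Fosl2 (log2FC 0.66), Fos fell (log2FC -0.75), and Jun and Junb were not called (log2FC 0.09 and -0.06). Nr4a2, an immediate-early nuclear receptor, had the largest rise of that list, from 19.1 ± 2.78 to 189 ± 6.18 CPM (log2FC 3.31).

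Most inflammatory ligands rose, and the stromal chemokine Cxcl12 fell. Of 17 tested chemokines 12 rose and 3 fell, with a median log2FC of 2.12. Ccl5, which attracts T cells and monocytes, was read at 3.48, 3.90, 4.68 and 3.22 CPM in control and 422, 498, 496 and 492 CPM in WT libraries (log2FC 6.96, SE 0.12, edgeR adjusted p 6.63e-20). The neutrophil attractants Cxcl1 and Cxcl5 rose from 12.98 ± 0.600 to 168 ± 2.90 CPM and from 10.3 ± 1.75 to 292 ± 21.1 CPM. Cxcl12, the homing chemokine made by stromal cells, was read at 1255, 1222, 1266 and 1183 CPM in control and 86.0, 92.9, 89.8 and 94.1 CPM in WT libraries (log2FC -3.76, SE 0.06, edgeR adjusted p 6.63e-20). Cxcl12 held most of the chemokine reads in control, and the summed level of the list was 1380 to 1459 CPM in control and 1476 to 1617 CPM in WT libraries. Ccl2 and Cxcl10 were among the genes listed at 0.

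Interleukins and related cytokines followed, 16 higher and 5 lower of 23, with Il34, a ligand of the macrophage growth factor receptor, lowest (log2FC -1.24). Il6 rose from 1.66 ± 0.335 to 75.5 ± 4.33 CPM (log2FC 5.50), and the related Lif and Il11 (log2FC 3.95 and 2.70). Tnfsf11, RANKL, which drives bone-resorbing cells, rose from 0.585 ± 0.332 to 15.9 ± 1.23 CPM. Its decoy receptor Tnfrsf11b fell from 1689 ± 75.9 to 1185 ± 46.1 CPM (log2FC -0.51), and so did Il1rn, the natural blocker of interleukin 1, from 685 ± 42.6 to 411 ± 17.9 CPM (log2FC -0.74). Several receptors of these ligands were lower: Il6st, the shared signal chain of the interleukin 6 family, at a log2FC of -0.72, Lifr at a log2FC of -1.13, Il11ra1 at a log2FC of -1.55 and the interleukin 1 receptor Il1r1 at a log2FC of -0.65. Over all 32 cytokine receptors 16 rose and 9 fell, with the decoy receptor Tnfrsf23 (log2FC 2.65) and Il4ra (log2FC 2.32) among the risers.

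**Figure D5:**
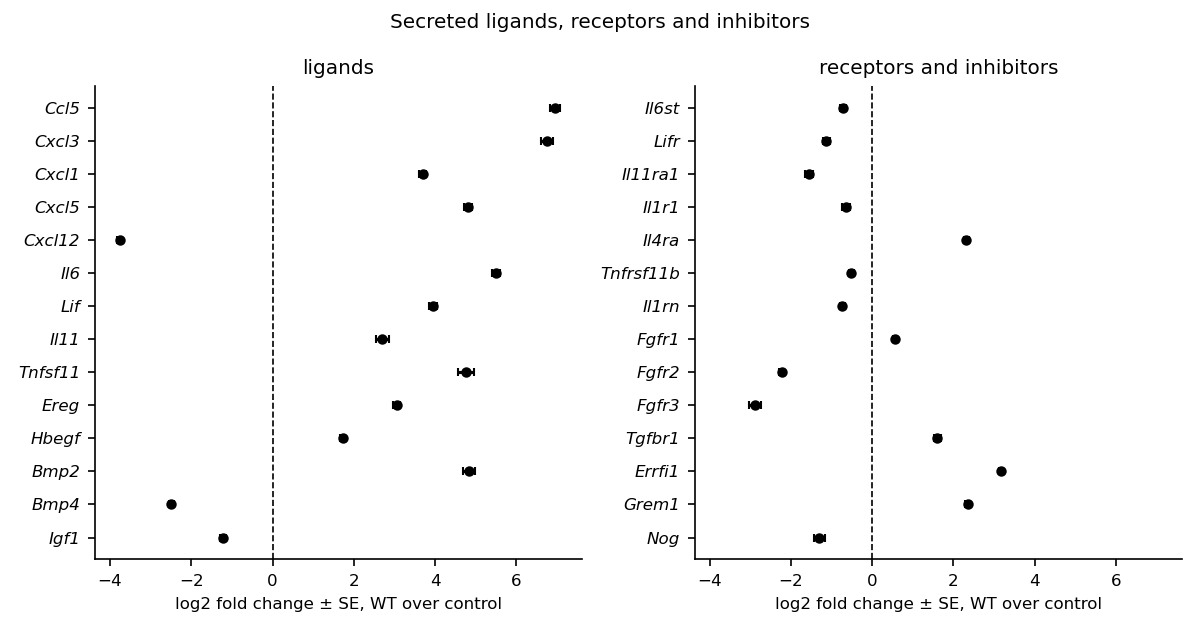
Log2 fold change, WT against control, of 14 secreted ligands (left) and 14 receptors or inhibitors (right), with bars of ± 1 standard error of the edgeR fit. Filled dots passed the adjusted p threshold; Il6 lies at 5.50 while its receptor chain Il6st lies at -0.72.

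The NF-kB list rose together with its own brakes. Of 35 genes 25 rose and 3 fell. Nfkbiz, an inducible co-factor that NF-kB needs at the Il6 and Lcn2 genes, rose from 32.2 ± 4.59 to 202 ± 15.7 CPM (log2FC 2.65). The inhibitors Nfkbia and Tnfaip3, which end the response, rose (log2FC 1.04 and 1.82), and Rel, a subunit used mainly by lymphocytes, fell (log2FC -0.71). A kappaB-like motif, GGANTTTCC, was found in 3 of 15 chemokine promoters and in 1.26% of all promoters. All 3 belong to close relatives of a single gene cluster, Cxcl1 and Cxcl3 among them, and are not 3 separate observations. The promoter of Cxcl3 (chr5:90785851-90786100, plus strand, GRCm38.p6), a neutrophil attractant with a log2FC of 6.75, is shown as the member with the motif and the largest fold change, with the match in capitals.
Cxcl3: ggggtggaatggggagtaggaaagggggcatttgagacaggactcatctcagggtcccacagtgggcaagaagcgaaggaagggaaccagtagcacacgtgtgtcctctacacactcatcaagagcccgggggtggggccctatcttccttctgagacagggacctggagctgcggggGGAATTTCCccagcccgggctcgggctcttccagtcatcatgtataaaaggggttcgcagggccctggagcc

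Genes that make prostaglandin E rose and the gene that inactivates it fell, in a list with 11 higher and 5 lower of 20. Ptgs2, the inducible cyclooxygenase, was read at 29.3, 29.8, 28.4 and 34.1 CPM in control and 1706, 1555, 1553 and 1574 CPM in WT libraries (log2FC 5.71, SE 0.09, edgeR adjusted p 3.29e-20). Pla2g4a, the phospholipase that frees its substrate, rose (log2FC 2.75), Ptgs1 (log2FC 3.59), and Ptges, the synthase of prostaglandin E (log2FC 1.78). Hpgd, the enzyme that inactivates prostaglandins, was read at 81.6, 90.5, 86.3 and 91.3 CPM in control and 2.66, 1.67, 2.31 and 1.75 CPM in WT libraries (log2FC -5.37, SE 0.14, edgeR adjusted p 1.80e-17). Every WT library lay far below every control library. Prostacyclin synthase, Ptgis, fell (log2FC -1.13). Nos2, the inducible nitric oxide synthase, rose from 0.245 ± 0.314 to 16.8 ± 1.42 CPM.

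Interferon-stimulated genes rose on balance and not as a block. Of 69 genes 37 rose, 17 fell and 15 were not called, with a median log2FC of 0.38. Oasl1, which restrains Irf7 translation, was read at 2.21, 2.63, 1.44 and 1.42 CPM in control and 243, 244, 235 and 251 CPM in WT libraries (log2FC 6.97). Irf7 and the viral RNA sensor Ifih1 rose (log2FC 1.65 and 1.38), and Zbp1, a sensor of Z-form nucleic acid (log2FC 2.96). Ifit1 rose (log2FC 1.26) while its neighbour Ifit3 fell (log2FC -0.79), and Bst2, Isg20 and Ifi27l2a fell (log2FC -0.66, -0.89 and -2.19). Stat2, which carries the interferon signal, rose (log2FC 0.55). The receptor gene Ifnar2 was not called (log2FC -0.19). The class I antigen genes H2-K1 and H2-D1 rose (log2FC 1.05 and 0.82), with their activator Nlrc5 (log2FC 1.73), while the peptide carrier Tap1 fell (log2FC -0.49). Class I genes are near copies of each other, and how reads were shared among them is not known.

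The ISRE-like motif GAAANNGAA, the core of the element bound by interferon factors, was found in 55.6% of 63 promoters of the interferon list and in 8.55% of all. Rsad2, the antiviral enzyme viperin (chr12:26456453-26456702, minus strand, GRCm38.p6), had a log2FC of 4.93, the largest among members with the motif. Its match in capitals reads on the opposite strand.
Rsad2: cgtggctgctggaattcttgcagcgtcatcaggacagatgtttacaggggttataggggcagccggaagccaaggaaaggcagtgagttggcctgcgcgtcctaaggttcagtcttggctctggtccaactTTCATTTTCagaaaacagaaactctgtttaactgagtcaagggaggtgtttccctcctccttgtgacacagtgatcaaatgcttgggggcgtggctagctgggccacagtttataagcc
The ARE-like motif of NRF2, TGACNNNGC, was found in 24.2% of 33 promoters of the antioxidant list and in 12.4% of all. This motif and the AP-1-like motif can overlap. A CARE-like motif of ATF4, TGATGNAAT, was in 2 of 20 promoters of the stress response list, against 0.966% of all. On the strand of the gene alone it was in 0 of the 20. The SRE-like motif TCACNCCAC was in 1 of 29 sterol promoters, and the E-box CACGTG in 5 of 26 clock promoters, against 1.24% and 7.15% of all.

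Sensors and signal carriers of innate immunity leaned upward. Of 35 genes 20 rose and 7 fell. Cd14, which hands bacterial lipid to its receptor, rose from 12.4 ± 1.02 to 51.2 ± 2.96 CPM (log2FC 2.05), and the receptors Tlr2 and Tlr4 rose (log2FC 1.05 and 1.10). Irf3, which the sensors switch on, fell (log2FC -0.45), and Nlrx1, a mitochondrial brake on sensing, was lowest (log2FC -0.82). Of 25 JAK-STAT genes 13 rose and 4 fell, with the feedback inhibitor Socs3 at a log2FC of 1.21 and Socs1 at a log2FC of -0.52. Acute phase genes split, 6 higher and 4 lower of 15. Saa3, a serum amyloid made in inflamed tissue, was read at 1.63, 0.608, 1.70 and 1.04 CPM in control and 252, 347, 292 and 331 CPM in WT libraries (log2FC 7.95). Apoe, a lipid carrier that macrophages also make, fell from 123.2 ± 7.69 to 18.2 ± 1.45 CPM (log2FC -2.76).

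Cell death genes had no common direction, 13 higher and 11 lower of 32. The survival genes Cflar, Bcl2 and Bcl2l1 rose (log2FC 1.503, 1.03 and 0.89). The death receptor Fas and Bcl2l11, which codes for the killer protein BIM, fell (log2FC -1.49 and -0.99). Gsdmd, which forms pores in pyroptosis, rose (log2FC 1.68). Of 29 autophagy genes 7 rose and 9 fell, from Atg9a (log2FC 0.60) to Calcoco1 (log2FC -0.80), with the cargo receptor Sqstm1 at a log2FC of -0.53. Of 12 tested genes of arginine, nitric oxide and polyamine use 7 rose and 3 fell. Odc1, which makes putrescine, rose (log2FC 1.12), as did Smox, which oxidises spermine (log2FC 1.86).

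Complement genes fell more often than they rose. Of 24 genes 14 fell and 6 rose. The classical proteases C1ra and C1s1 fell (log2FC -1.88 and -1.70), and C4b (log2FC -1.65). C1qa fell from 10.8 ± 1.04 to 2.10 ± 0.372 CPM. It is a macrophage marker, and the 12 tested markers of that cell type all fell. C3, on which all arms meet, rose from 3.22 ± 0.498 to 70.2 ± 5.15 CPM (log2FC 4.45), and so did the regulator Cd55 (log2FC 1.33). Masp1, a protease of the lectin arm, rose from 346 ± 21.8 to 1163 ± 43.9 CPM (log2FC 1.75). Lysosome genes fell in 25 and rose in 2 of 46, the higher of these being cathepsin C (Ctsc, log2FC 0.40), with Laptm5 and Ctss, abundant in macrophages, at a log2FC of -1.83 and -1.58 and Ctsk and Ctsd at a log2FC of -0.50 and -0.57. The part of macrophage RNA in these values was not tested. S100a8, a neutrophil marker that other cells also make under inflammation, rose from 0.385 ± 0.161 to 48.6 ± 6.65 CPM. All 3 tested neutrophil markers rose, while S100a9 was at 0 and Elane, Mpo, Retnlg and Csf3r had at most 9 counts in any library of the 2 groups.

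Ligands, receptors and inhibitors of growth factor families moved in different directions. Among FGF, EGF and PDGF genes 28 of 48 rose and 12 fell. The EGF family ligands Ereg and Hbegf rose from 25.8 ± 2.73 to 215 ± 10.04 CPM and from 55.4 ± 5.62 to 183 ± 8.76 CPM. Errfi1, the inducible inhibitor of the EGF receptor, was read at 86.0, 88.5, 87.6 and 84.1 CPM in control and 779, 774, 785 and 783 CPM in WT libraries (log2FC 3.17, SE 0.06, edgeR adjusted p 6.63e-20). Receptors of the FGF family split: Fgfr3 and Fgfr2, which act in growth cartilage, fell (log2FC -2.89 and -2.23), and Fgfr1 rose (log2FC 0.55). The phosphatases that report MAPK activity, Dusp6 and Dusp4, rose (log2FC 1.99 and 2.44), in a list with 29 higher and 6 lower of 43 and Dusp14 lowest (log2FC -0.76). In the IGF list 15 rose and 18 fell of 40. Igf1, an anabolic factor of cartilage, fell from 156 ± 5.49 to 67.1 ± 5.49 CPM (log2FC -1.22) and Igfbp2 (log2FC -1.87), while Stc1 rose from 16.9 ± 2.43 to 249 ± 16.2 CPM (log2FC 3.88).

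In the BMP family ligands traded places, with 13 of 32 genes higher and 12 lower. Bmp4 was read at 268, 252, 248 and 263 CPM in control and 42.6, 48.9, 48.4 and 44.1 CPM in WT libraries (log2FC -2.49, SE 0.07, edgeR adjusted p 4.08e-17). Bmp2 went from 0.713 ± 0.138 to 20.7 ± 1.63 CPM (log2FC 4.84). Antagonists did likewise: Grem1 rose from 357 ± 6.93 to 1813 ± 51.6 CPM (log2FC 2.35) and Nog and Chrd fell (log2FC -1.30 and -0.82). Id3, a direct target of BMP signals, fell (log2FC -0.84). Among TGF-beta genes 19 of 35 rose and 10 fell. Those lower included the ligands Tgfb2 and Tgfb3 (log2FC -2.43 and -1.61) and Smad3, the signal carrier that protects cartilage (log2FC -0.95). Gdf10, a related ligand, was lowest (log2FC -4.52). The type I receptor Tgfbr1 rose from 37.9 ± 3.35 to 115 ± 10.8 CPM (log2FC 1.60).

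Wnt and Hedgehog genes were mostly lower. Of 51 Wnt genes 28 fell and 16 rose, with a median log2FC of -0.58. Genes that fell included the secreted antagonists Dkk3, from 1004 ± 67.5 to 110.1 ± 4.85 CPM (log2FC -3.19), Sfrp2 (log2FC -3.84) and Wif1 (log2FC -2.60). Lgr6, a receptor for R-spondins, rose from 12.2 ± 1.28 to 113 ± 5.80 CPM (log2FC 3.21), and the ligand Wnt11 (log2FC 2.11). Of 14 Hedgehog and PTHrP genes 8 fell and 3 rose. Gas1, a co-receptor, was read at 1040, 1004, 1039 and 1013 CPM in control and 230.1, 237, 246 and 251 CPM in WT libraries (log2FC -2.09, SE 0.06, edgeR adjusted p 2.43e-16). Smo, the signal transducer, fell (log2FC -0.94), and Ptch1, both receptor and target, rose (log2FC 0.98). Pth1r, the receptor that holds back hypertrophy, fell from 12.9 ± 0.989 to 2.98 ± 0.420 CPM.

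Of the transcription factors that set chondrocyte and bone identity, 63 were tested, 20 rose and 28 fell. The SOX trio changed little next to the collagens it controls: Sox9 went from 142 ± 1.59 to 124 ± 3.64 CPM (log2FC -0.20), Sox6 fell (log2FC -0.44) and Sox5 rose (log2FC 0.72). Runx2, the driver of hypertrophy, was not called (log2FC -0.11). Dlx5 fell to 1.84 ± 0.5004 CPM from 16.1 ± 2.34, and Snai2 and Twist1, factors of mesenchymal cells, fell (log2FC -1.68 and -0.89). Etv1 rose from 3.14 ± 0.587 to 37.9 ± 4.04 CPM (log2FC 3.59). The architectural chromatin proteins Hmga1 and Hmga2, high in embryonic and dividing cells, rose (log2FC 2.46 and 2.39). In the chromatin list around them 21 of 64 rose and 20 fell. The histone list held 16 higher and 7 lower of 46. Its summed level went the other way, with 1769 to 1902 CPM in control and 1227 to 1355 CPM in WT libraries. Hmga2 was read at 91.8, 109.9, 93.2 and 100.8 CPM in control and 562, 500.2, 505 and 504 CPM in WT libraries. Zinc finger protein genes, the largest list, held 117 lower, 26 higher and 177 not called of 320, from Zfp697 (log2FC 1.62) to Zfp385b (log2FC -1.28).

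Nuclear receptors and their ligand enzymes were even, 12 higher and 13 lower of 36. Thyroid hormone genes traded places, with the receptor Thrb (log2FC 1.42) and Dio2, which activates the hormone (log2FC 1.60), higher and the receptor Thra lower (log2FC -1.32). Pparg, the fat cell regulator, fell from 18.5 ± 0.944 to 4.59 ± 0.468 CPM (log2FC -2.01), and the vitamin D receptor Vdr rose (log2FC 1.13). Among Notch and ephrin genes 12 of 30 fell and 8 rose, with the Notch ligand Jag1 at a log2FC of -2.08 and Notch2 at a log2FC of 0.71, while Epha2, an ephrin receptor, rose most (log2FC 1.14). Slit2, a guidance cue, rose from 10.7 ± 1.83 to 86.0 ± 8.25 CPM (log2FC 3.01), while Sema3f fell (log2FC -2.55).

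Of 22 clock genes 10 rose and 8 fell. Arntl, the activator BMAL1, rose from 15.1 ± 0.979 to 35.8 ± 1.11 CPM (log2FC 1.25). Dbp, an output that BMAL1 is known to drive, was read at 46.6, 41.1, 43.5 and 44.8 CPM in control and 6.90, 8.27, 7.39 and 9.56 CPM in WT libraries (log2FC -2.45, SE 0.10, edgeR adjusted p 1.72e-14). Tef, Per2, Nr1d1 and Nr1d2 fell (log2FC -0.99, -0.83, -0.40 and -0.53). Nfil3, which opposes Dbp at the same sites, and Cry2 rose (log2FC 1.14 and 0.87). The hour at which each culture was collected is not given, so time of day and treatment cannot be told apart here.

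Integrin and focal adhesion genes rose more often than they fell, and actin cytoskeleton genes went both ways. Of 38 integrin and focal adhesion genes 20 rose and 8 fell. Itgb3, which with Itgav forms the vitronectin and osteopontin receptor, was read at 11.2, 6.53, 7.08 and 8.68 CPM in control and 158, 141, 157 and 145 CPM in WT libraries (log2FC 4.17, SE 0.11, edgeR adjusted p 3.95e-17). Itgav rose (log2FC 1.10), and the gene of the ligand osteopontin, Spp1, from 1936 ± 80.2 to 14540 ± 1402 CPM (log2FC 2.91). The collagen-binding chains Itga10, Itga11 and Itga1 fell (log2FC -0.77, -2.83 and -0.90), while Itga2, of the same class, rose (log2FC 2.57). Smooth muscle actin, Acta2, was read at 788, 864, 747 and 705 CPM in control and 131, 135, 139.6 and 134 CPM in WT libraries (log2FC -2.52). Of 41 actin cytoskeleton genes and YAP targets, 14 rose and 20 fell. The contractile genes Cnn1, Myl9 and Tpm2 fell (log2FC -1.85, -1.38 and -0.84). Of known YAP targets Ccn2 and Ankrd1 rose (log2FC 0.56 and 3.12) and Ccn1 fell (log2FC -0.37). Cilium genes were lower in 21 and higher in 6 of 48, from Cep164 (log2FC 0.56) to Mks1 (log2FC -1.01).

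Ion channels and pumps were even, 31 higher and 33 lower of 90, from the potassium channel Kcnj2 (log2FC 4.47) to Kcnip4, a channel partner (log2FC -3.38). Of the 2 stretch-activated channels Piezo2 fell from 79.6 ± 7.38 to 8.41 ± 1.36 CPM (log2FC -3.24) and Piezo1 rose (log2FC 0.36). The osmotic channel Trpv4 rose (log2FC 0.30). The sodium pump beta chain Atp1b1 rose from 12.1 ± 0.656 to 140.2 ± 3.91 CPM, and so did the water channel Aqp5 (log2FC 2.23). In the mineralization list 6 rose and 6 fell of 14. Enpp1, which makes pyrophosphate, rose (log2FC 1.86), as did the phosphate carriers Slc20a1 and Slc20a2 (log2FC 0.59 and 1.78). Alpl, the phosphatase that breaks down pyrophosphate, was not called (log2FC 0.09). Mgp, an inhibitor of calcification, fell (log2FC -1.06). Among receptors coupled to G proteins the bradykinin receptor Bdkrb2 rose to 14.04 ± 2.38 CPM from 1.18 ± 0.202, and the endothelin receptor Ednrb fell to 1.89 ± 0.205 CPM from 36.6 ± 2.49.

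Of 25 listed non-coding and RNA host genes 11 fell and 3 rose. The imprinted H19, Meg3 and Rian were among those that fell. H19 went from 732 ± 30.1 to 79.3 ± 4.44 CPM (log2FC -3.21), and Meg3 and Rian had log2FCs of -1.15 and -0.70. The snoRNA host Snhg12 fell (log2FC -1.92), Lncpint rose (log2FC 0.65), and Malat1, the abundant nuclear RNA, was not called (log2FC 0.34). Lncpint was not called by edgeR without control replicate 1 (adjusted p 0.0778) or 3 (0.0841), or without WT replicate 1 (0.0548), nor on all libraries with a robust prior (0.0942) or by DESeq2 (adjusted p 0.0580). By annotated class, 32.2% of 425 tested lincRNA genes were called at least 2-fold, against 16.4% of 12504 protein-coding genes. Of the tiers of genes by level, the lowest had 30.1% called at least 2-fold and the highest 10.7%.

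The change in read share was spread over many genes, with single large contributions. Spp1 alone gained 12600 CPM, Fth1, the ferritin heavy chain, 2965 CPM and Pkm, pyruvate kinase, 2411 CPM. On the falling side fibronectin (Fn1) lost most, from 33740 ± 3793 to 17594 ± 1653 CPM, then Col1a2 and Thbs1. The 10 largest falls made up 32.8% of all lost CPM and the 10 largest rises 17.3% of all gained CPM. Because CPM are shares of a library, these sums are not amounts per cell.

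Some genes were read in one group alone. With at least 1 CPM in all 4 libraries of one group and at most 3 counts in each library of the other, 11 genes were found in WT only and 13 in control only. Stfa3, a cysteine protease inhibitor of the stefin family with near-identical neighbours, was at 4.71 ± 0.914 CPM in WT and at 0 counts in all 4 control libraries, and so at least 30.2-fold higher against a floor of 3 counts per library. Olr1, a receptor for oxidised LDL, was at 4.16 ± 1.05 CPM in WT and 0 counts in every control library, at least 26.6-fold higher. In control only, Krt75, a keratin, stood at 12.9 ± 0.910 CPM, with 3, 0, 1 and 3 counts in the WT libraries. Ostn, the muscle and bone peptide osteocrin, and Meox1, a homeobox factor of the somite, were at 2.97 ± 0.690 and 2.73 ± 0.168 CPM. These floors cover counting error only.

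The SIRT5F101L libraries were set against the WT libraries to set the wild-type plasmid beside its mutant form. By edgeR's test 6 of 14253 genes (0.0421%) differed between the 2 plasmids. Of the genes named here Col11a2 and Vcam1 were among them. Col11a2 was at 26.0 ± 1.67 CPM in WT and 16.8 ± 1.35 CPM in SIRT5F101L libraries (log2FC -0.63, edgeR adjusted p 0.0339). Vcam1, an adhesion molecule for leukocytes, had fallen from 73.5 ± 3.81 CPM in control to 43.1 ± 1.09 CPM in WT (log2FC -0.77) and was at 56.2 ± 4.28 CPM in SIRT5F101L libraries (log2FC 0.38, edgeR adjusted p 0.0441). For every other gene named above a difference between the plasmids did not pass this test, which does not show that the plasmids acted alike. The 2 comparisons share the WT libraries.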

How the data were processed

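Messenger RNA of primary mouse chondrocytes was sequenced (poly-A selected, 150-base paired reads) in 12 libraries. The authors deposited whole-number read counts per Ensembl gene. Per the submitters' processing notes the tools included FastQC 0.11.9, HISAT2 2.2.1, HTSeq 2.0.2 and DESeq2 1.38.3 on GRCm39; annotation release and strand setting are not given in the sources used here. Rows without a gene symbol in the reference names held 0.377% to 0.527% of counts in the 8 compared libraries and stayed in the fit as genes with IDs only.

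The deposited counts were fitted with edgeR 4.0.16 in R 4.3.3: filterByExpr by group, TMM scaling, a quasi-likelihood model of 3 group means over the 12 libraries (9 residual degrees of freedom, biological coefficient of variation 9.19%), and Benjamini-Hochberg adjustment over 14253 genes, called under 0.05. CPM are TMM-scaled. The fit was tested on simulated counts. Groups came from the treatment labels, which tie no libraries together across groups. Members and lists were chosen with earlier results of these data known. Genes are named where they were marked when a list was written or where they moved the most CPM. The highest and lowest called members averaging at least 5 CPM are named too. Cxcl3, Kif2c, Rsad2 (promoters), Cd34, Chsy3, Ddr2, the Gstm genes, Has3, Hsp90aa1, Hspa1b, Irf3, Panx3, Psph and Slc2a3 were chosen after their values were seen. Alternatives were 17 other fits, among them DESeq2 1.42.0, other scalings, filters and each library left out. Promoters came from RefSeq (GRCm38.p6), not the build of the counts. Depth and its limits are given in the report; counting floors use 3 counts.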

Additional observations from a re-analysis of the deposited data

Results flagged for a closer look

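Of 244 groups of 4 values checked (the levels printed for 112 genes, summed levels of 7 lists and 3 library measures, each in control and in WT), 12 held 1 library far from the other 3 by Dixon's criterion at its 95% level. Chance flags about 1 in 20 groups, and 4.92% were flagged here. WT replicate 1 was the library apart for 4 of them and WT replicate 4 for 3.

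In control libraries, Aldh1l2 stood at 122 CPM in replicate 1 against 113 to 114 CPM in the others. Eln was at 8.56 CPM in replicate 2 against 12.1 to 12.8 CPM, Hbegf at 63.7 CPM in replicate 4 against 51.6 to 53.3 CPM, and Slc39a8 at 6.28 CPM in replicate 3 against 4.61 to 4.82 CPM. In WT replicate 1, Ccl5 was at 422 CPM where the other WT libraries held 492 to 498 CPM. Hmga2 was at 562 CPM there against 500.2 to 505 CPM, and Ptgs2 at 1706 CPM against 1553 to 1574 CPM. Ostn was at 0.0493 CPM in that library and at 0 in the others, a difference of 1 count. In WT replicate 4, Fosl1 was at 27.5 CPM against 31.0 to 31.3 CPM, Polr1a at 86.2 CPM against 92.1 to 93.3 CPM, and Ugdh at 1051 CPM against 965 to 978 CPM. In WT replicate 3, Stfa3 was at 3.35 CPM against 5.08 to 5.29 CPM. In each of these genes the control and WT libraries still did not overlap.

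The direct test between plasmids set 2 named genes apart. Col11a2 had a log2 fold change of -0.63 and Vcam1 of 0.38 in SIRT5F101L against WT libraries by edgeR, with adjusted p values of 0.0339 and 0.0441.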

How the results depend on the processing

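Across 17 alternative fits, 7549 to 8502 genes were called, and 1871 to 2847 were called at least 2-fold, against 8090 and 2375. The number of lists with a median above 0 was 43 to 47 of 84, against 45. Of 6458 alternative values of 380 called genes named in the text, 6443 kept direction and call, 15 lost the call and 0 reversed. Ddr2 and the Gstm genes were not in that check. The 15 concerned Lncpint (5), Ndufs1 (7), Nup85 (2) and Ncl (1). The median of 12 lists crossed 0 in at least 1 fit. It lay within 0.1 of 0 for 10 of them, and the others were MMPs (0.20 to -0.25) and mineralization (-0.27 to 0.09), both with at least 1 CPM on average. Cytosolic ribosomal proteins held 41 to 65 lower members, against 57. Upper-quartile scaling moved the median of all genes to -0.06. With a floor of at most 1 count in the empty group, 6 genes were found in WT only and 6 in control only. With at least 0.5 CPM these numbers were 38 and 30, and with at least 2 CPM 5 and 3. Libraries of the groups share the numbers 1 to 4, and nothing in the labels says that a number ties libraries together. Same-numbered control and WT libraries did not deviate together from their group means (r of -0.106 to 0.0177 across genes), and with the number as a replicate block, added after seeing the data, 7715 genes were called. Reads of lower genes limit the smallest changes that pass, and Sirt5, with at most 16 counts a library, cannot show a modest difference.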

Other observations

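Lists outside the main groups moved as follows. Of 32 cell adhesion molecules 15 rose and 8 fell. Alcam, a partner of CD6, rose from 27.2 ± 2.19 to 163 ± 11.2 CPM (log2FC 2.58), and the heparan sulfate protein Sdc2 fell from 777 ± 36.5 to 297 ± 7.92 CPM (log2FC -1.39). In the list of G proteins and their regulators 27 of 53 rose and 14 fell, with the phosphodiesterases Pde4b and Pde4d, which break down cyclic AMP, higher (log2FC 1.71 and 1.75). Of 47 ubiquitin and ISG15 conjugation genes 23 rose and 6 fell. Mitochondrial import and dynamics genes rose in 12 and fell in 4 of 30. The mitochondrial chaperone Hspd1 rose (log2FC 0.58) and Tfam, which packs mitochondrial DNA, fell (log2FC -0.31). These counts can be set against 28.7% higher and 28.1% lower among all tested genes.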
